A study of Homo sapiens with 6 samples.

Results

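Heat shock proteins and their DNAJ co-chaperones were followed through gemcitabine treatment of PANC1 cells. Members were the genes whose current symbol starts DNAJA, DNAJB, DNAJC, HSPA, HSPB or HSP90, or is HSPD1, HSPE1 or HSPH1, without HSPA or HSPB binding proteins, readthrough transcripts or antisense genes. By this rule 70 of the 20461 genes in the RNA-seq table were members: 14 HSPA genes (HSP70 family), 3 HSP90 genes, HSPH1 (HSP110), the 2 subunits of the mitochondrial chaperonin, 6 HSPB genes (small heat shock proteins) and 44 J-domain genes, of which 4 are class A, 12 class B and 28 class C. PANC1 is an established human pancreatic carcinoma line of ductal type, and gemcitabine is a nucleoside analogue that blocks DNA synthesis. Cells received either 50 nM gemcitabine or vehicle (0.1% DMSO) for 48 h, and RNA-seq was made from 2 biological replicates per condition, all of 1 line at 1 dose and time. DNaseI-seq, which marks open chromatin, was made from 1 library per condition. The RNA libraries held 15153598 and 15766232 estimated fragments with vehicle and 13194535 and 13275474 with gemcitabine.

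The cell line's markers were in place. KRT7, KRT8, KRT18 and VIM stood between 336 and 1658 FPKM (fragments scaled by transcript length and library size) in all 4 libraries, and KRT19, another duct keratin, was low at 3.05 to 6.91 FPKM. Among markers of blood, endothelial, acinar and endocrine cells, PTPRC, CD3E, CDH5, PRSS1, CPA1, INS and GCG were at most 0.313 FPKM, and 4 of them (CD3E, PRSS1, INS, GCG) were at 0 in every library. PTPRC was at 0.0021 and 0.00097 FPKM with vehicle and at 0.313 and 0.157 with gemcitabine, and its part in the results was not tested.

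Chaperones bind unfolded protein and help it to fold. HSP70 proteins bind and release short exposed stretches in an ATP-driven cycle. J-domain proteins bring clients to HSP70 and switch on its ATPase, and HSP110 and other nucleotide exchange factors reset it. HSP90 takes over later, for kinases, hormone receptors and other clients, while the mitochondrial chaperonin (HSPD1 and HSPE1, also called HSP60 and HSP10) encloses proteins after import. Many of these genes are switched on by heat shock factor HSF1, which binds heat shock elements made of inverted GAA units, and those of the endoplasmic reticulum (ER) by ATF6 and XBP1 through the ER stress element.

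Heat shock elements were looked for in a window from 250 bases before to 50 bases after the start of each gene's canonical transcript (hg19, GENCODE v44 lifted to GRCh37), because the members that fell with gemcitabine include several textbook heat shock genes. The letters searched were GAANNTTCNNGAA, the perfect form with 3 units, on both strands. This string was in the window of 7 of the 65 members tested for expression (10.8%) and of 0.318% of the windows of 14445 tested genes. These 7 were HSPA8, HSPD1, HSP90AA1, HSPH1, HSPA6, DNAJB6 and DNAJA1. The first is shown whole and the next 5 as the element with up to 20 bases on each side, 5′ to 3′ on the gene's strand, with the element in capitals.
HSPA8, chr11:122932795-122933094, minus strand: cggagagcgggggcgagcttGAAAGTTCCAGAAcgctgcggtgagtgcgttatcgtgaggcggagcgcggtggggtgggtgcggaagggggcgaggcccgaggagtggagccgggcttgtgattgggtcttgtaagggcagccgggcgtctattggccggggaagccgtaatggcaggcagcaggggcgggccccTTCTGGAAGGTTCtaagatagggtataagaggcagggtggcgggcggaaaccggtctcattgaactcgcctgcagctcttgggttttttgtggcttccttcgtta
HSPD1, chr2:198364772-198364814, minus strand: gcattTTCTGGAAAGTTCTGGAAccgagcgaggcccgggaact
HSP90AA1, chr14:102553437-102553489, minus strand: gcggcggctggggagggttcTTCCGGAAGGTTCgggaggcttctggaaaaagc
HSPH1, chr13:31736068-31736120, minus strand: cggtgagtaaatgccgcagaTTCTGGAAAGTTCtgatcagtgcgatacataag
HSPA6, chr1:161494236-161494288, plus strand: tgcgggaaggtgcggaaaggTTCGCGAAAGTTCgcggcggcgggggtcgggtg
DNAJB6, chr7:157129547-157129599, plus strand: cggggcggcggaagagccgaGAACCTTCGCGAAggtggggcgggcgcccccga

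Positions are counted with the start site as 0 and bases before it as negative. HSPA8 held the element near both ends of the region before its start, at -230 to -218 and at -55 to -43. In HSPD1 a pair of overlapping copies, at -245 to -233 and -240 to -228, made a run of 4 units. The single element of DNAJA1, GAACTTTCCAGAA, lay just past the start, at 3 to 15. Of the 20 members that were lower with gemcitabine in the test given further on, 4 held the 3-unit string (20.0%). Of the 9 that were higher, none did, where 7 of all 65 tested members did (10.8%). The carriers HSPA6, DNAJB6 and DNAJA1 did not pass. The search was prompted by members that fell, and a link between the string and the change was not tested. A match of letters is a description of the window and not evidence that a factor was bound, and the string can be absent from the window of a gene that has such an element elsewhere.

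The ER stress element was searched as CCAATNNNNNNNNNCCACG on both strands. Among the tested members 2 held it, against 0.111% of all windows: HSPA5, the main HSP70 of the ER, and HSP90B1, the HSP90 of the ER, which held it in both orientations. Both of these genes fell. The elements are shown in the same way.
HSPA5, chr9:128003650-128003708, minus strand: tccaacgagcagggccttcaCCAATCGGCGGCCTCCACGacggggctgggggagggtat
HSP90B1, chr12:104323974-104324032, plus strand: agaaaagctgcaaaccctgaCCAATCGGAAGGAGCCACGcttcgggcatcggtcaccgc
HSP90B1, chr12:104324079-104324137, plus strand: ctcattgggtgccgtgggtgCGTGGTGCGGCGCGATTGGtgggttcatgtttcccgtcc

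The shorter pairs of units were also more frequent in members than in all windows. GAANNTTC, which lies inside the 3-unit string, was in 18 of 65 windows (27.7%) against 4.54%, and TTCNNGAA, which also lies inside it, was in 13 of 65 (20.0%) against 5.36%. The letters TATAAA were in 9 of 65 windows (13.8%) against 5.91%, and CCAAT, part of the ER stress element, in 26 of 65 (40.0%) against 35.7%. Median GC content of the windows was 65.0% in tested members and 66.0% in all tested genes.

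**Figure D1:**
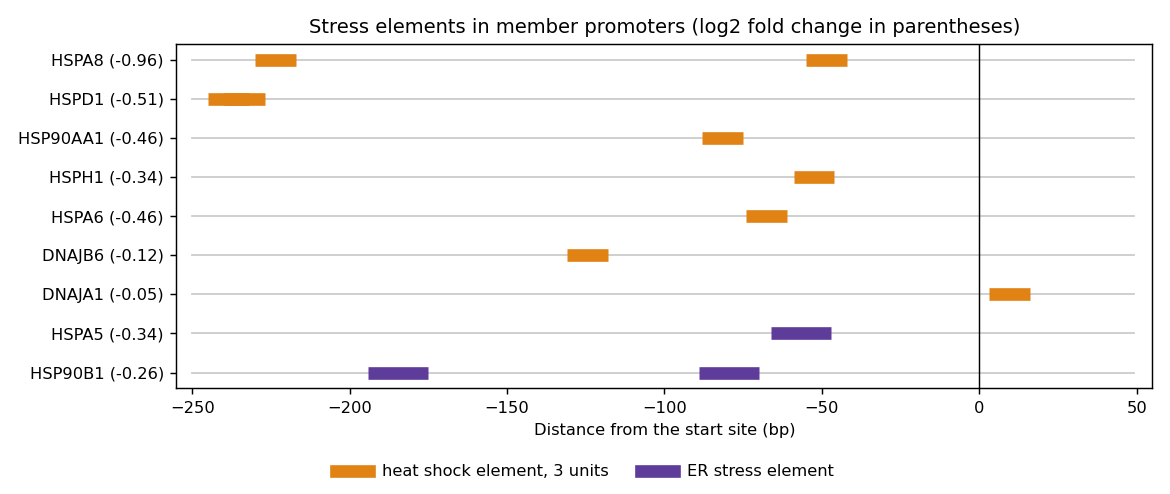
Position of each perfect 3-unit heat shock element (orange) and ER stress element (purple) in the 300-base windows of 9 members, in bases from the start site (horizontal axis), with each gene's log2 fold change of gemcitabine over vehicle in parentheses. The 2 elements of HSPA8 begin at -230 and -55, and DNAJA1 is the single gene here with its element after the start site.

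Chaperones were among the most abundant transcripts of these cells. A mean of at least 0.1 FPKM in 1 condition was reached by 65 of 70 members (92.9%) and by 70.7% of all genes, and a mean of at least 100 FPKM by 15 members (21.4%) and by 8.03% of all genes. Median level was 25.6 FPKM over the 65 tested members and 12.6 FPKM over all 14854 tested genes. HSPD1 was the highest member, at 1101 FPKM with vehicle, followed by HSP90AB1 at 862, HSPA8 at 751 and HSPB1 at 738. At the other end, DNAJB8, DNAJB13, DNAJC5B, DNAJC5G and HSPB7 had fewer than 10 fragments over the 4 libraries and were not tested. In total, members took 1.19% and 1.20% of all fragments in the vehicle libraries and 1.00% and 1.01% in the gemcitabine libraries.

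**Figure D2:**
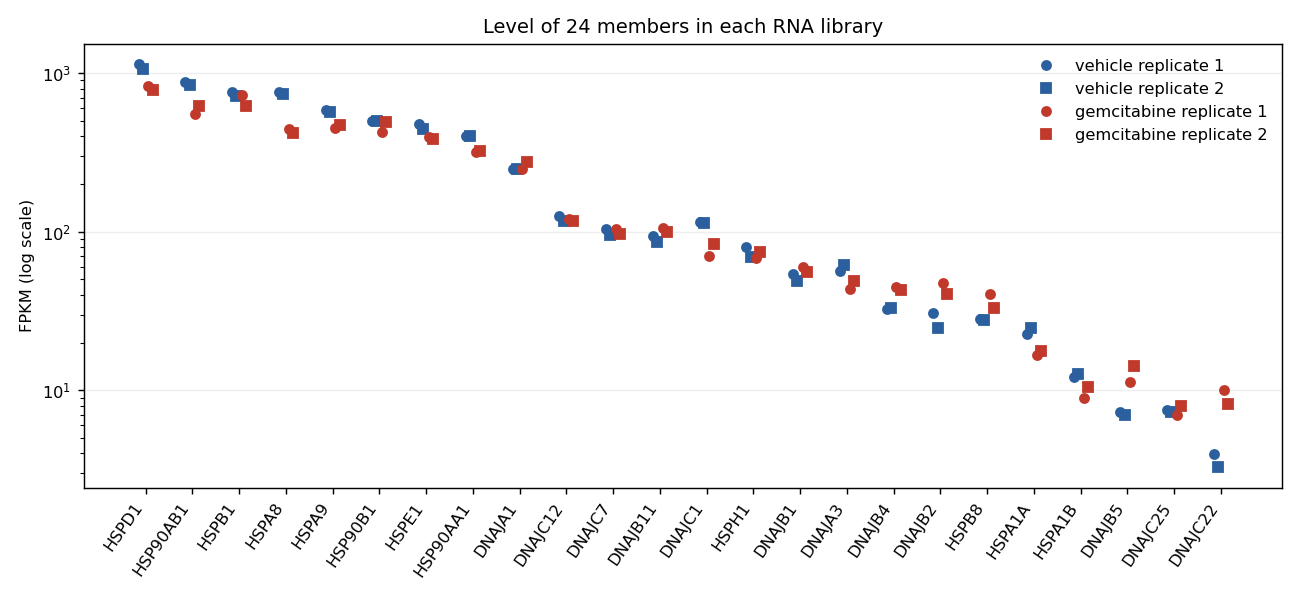
FPKM (vertical axis, log scale) of 24 members in each of the 4 RNA libraries, blue for vehicle and red for gemcitabine, circles for replicate 1 and squares for replicate 2, in order of mean level. HSPA8 drops from 765 and 738 to 445 and 419 FPKM, while DNAJC22, at the far right, goes from 3.98 and 3.26 to 9.99 and 8.20.

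Upon gemcitabine treatment the abundant core of the chaperone system fell. The share of members that rose in the test below was not above that of all genes. By the quasi-likelihood test of edgeR, adjusted over all 14854 genes after Benjamini and Hochberg, 20 of 65 members (30.8%) were lower at an adjusted p under 0.05, where 20.0% of all tested genes were, and 9 (13.8%) were higher, where 18.5% of all tested genes were. The other 36 did not pass. Median log2 fold change was -0.068 over members and 0.0069 over all tested genes. The member median turned positive by library totals (0.042, where that of all genes was 0.12) and by limma on FPKM (0.032 to 0.054), and limma on log2(FPKM + 1) gave 6 higher and 6 lower members. The study's 4 criteria were applied with the adjusted p and fold of edgeR in place of Cuffdiff's, so the calls are not the study's own. They were an adjusted p under 0.05, change over 1.5-fold, at least 0.1 FPKM in 1 condition and a difference of at least 1 FPKM. By these 4 criteria 2 members were lower, HSPA8 and HSP90AB1, where 4.42% of all genes were. A further 3 were higher, DNAJC22, DNAJB5 and DNAJB2, where 5.69% of all genes were. Without vehicle replicate 1 the members past the adjusted p were 5 higher and 10 lower, and without vehicle replicate 2 they were 4 higher and 8 lower. The share of all genes that were lower dropped too, to 7.47% and 6.94%. In each fit without 1 library, 7 of the 20 lower members passed again: HSPA8, HSP90AB1, HSP90AA1, HSPD1, HSPA9, HSPA1A and DNAJC1. The other 13 lost the threshold in at least 1 of these fits. Of the 9 higher members, 4 passed in each. In bulk libraries such as these, fewer cells with a transcript and less of it per cell cannot be told apart.

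The abundant members were mostly lower. Level here is the mean over all 4 libraries, while the 15 members given above reached 100 FPKM in at least 1 condition. Of the 12 members with at least 100 FPKM by this mean, 10 fell and none rose, with a median log2 fold change of -0.34. Of all 1499 genes at that level, 30.2% fell and 16.0% rose, with a median of -0.055. The 10 became 5 without vehicle replicate 1 (where 11.7% of all genes at that level fell), 5 without vehicle replicate 2 (12.5%), 8 by library totals (19.9%) and 5 by limma on log2(FPKM + 1) (8.47%), with none higher in any of these. The 2 abundant members that did not pass were DNAJA1 and DNAJC12, both J-domain genes. Among the 36 members from 10 to under 100 FPKM, 9 fell (25%) and 6 rose (16.7%), close to the 27.4% and 19.4% of all genes there. Of the 17 tested members under 10 FPKM, 1 fell and 3 rose (17.6%), where 10.5% and 18.2% of all genes did.

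**Figure D3:**
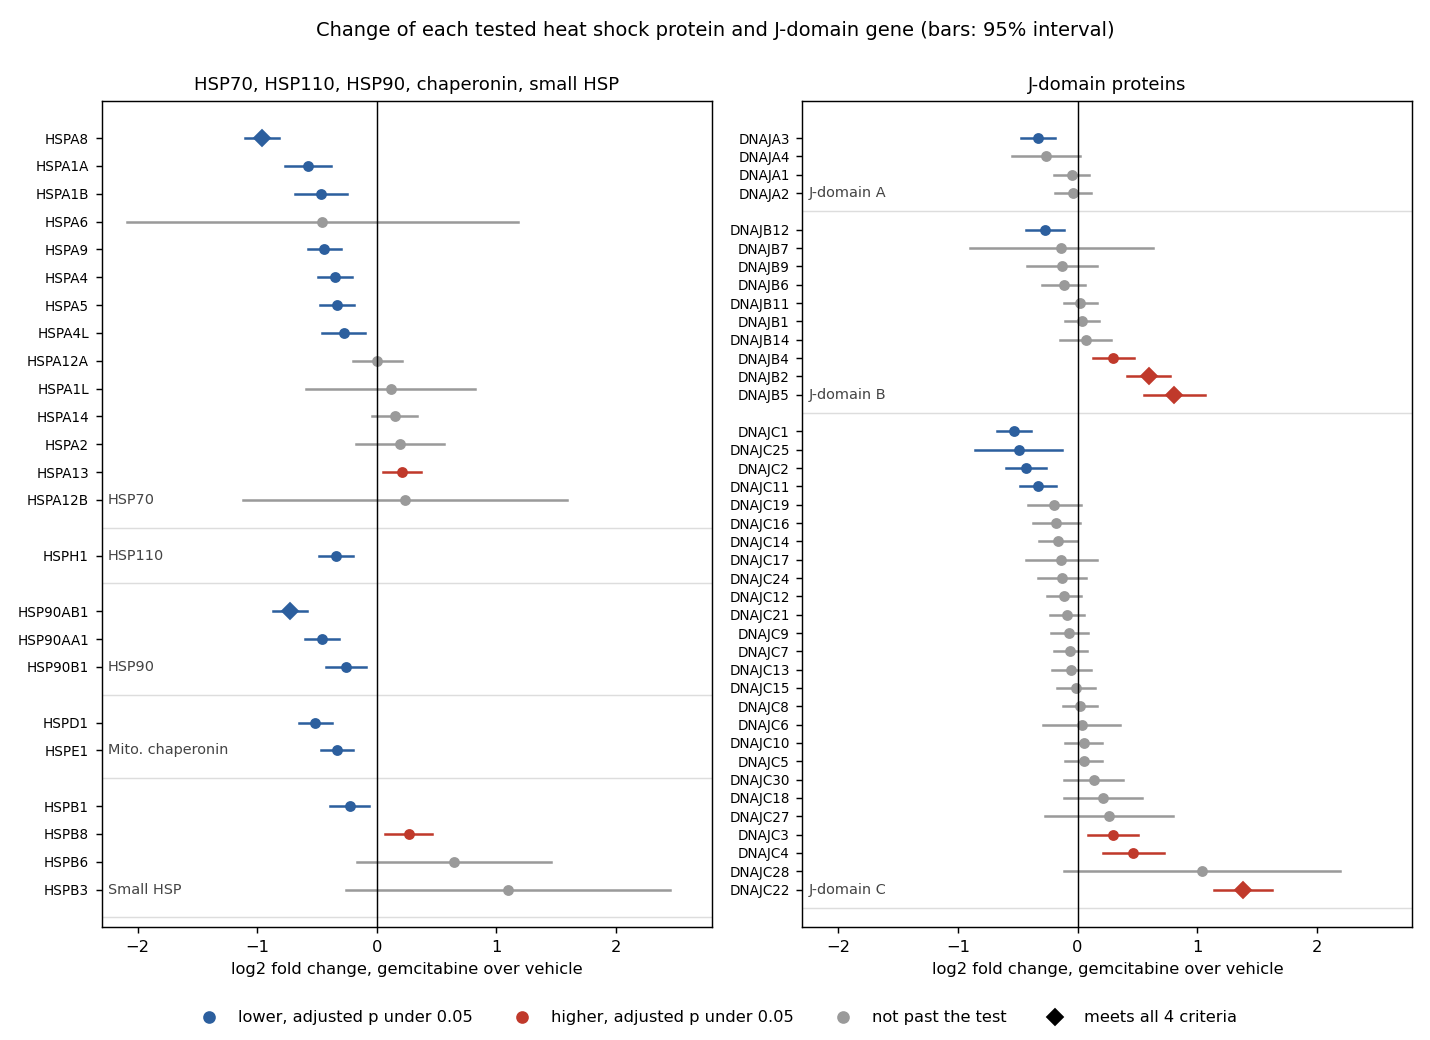
log2 fold change of gemcitabine over vehicle (horizontal axis) for 64 tested members, grouped by family, with 95% intervals from edgeR as bars. HSPB2 is left out because both vehicle libraries were at 0. The HSP70, HSP90 and chaperonin genes lie mostly left of 0, while most J-domain genes have intervals that span it.

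HSPA8 showed the largest fall of any member. It encodes HSC70, the HSP70 that cells make at all times for folding, transport and the uncoating of clathrin vesicles. Its normalised level was 938 and 935 CPM (fragments scaled to a common library size, with TMM factors) with vehicle and 469 and 497 with gemcitabine. The 2 conditions did not overlap and were far apart, with -0.96 as log2 fold change (standard error, SE, 0.0667, adjusted p = 1.67e-07), or 1.94-fold lower. Part of its sequence is shared with processed pseudogenes. Of the 50-base words of its transcript, 16.7% occur in annotated transcripts of other genes with family symbols, the only ones searched.

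HSPA1A and HSPA1B also fell. They are the stress-inducible pair and lie 12195 bases apart on chromosome 6. HSPA1A went from 42.7 and 47.9 CPM to 29.5 and 31.4 (log2 fold change -0.57, SE 0.0901, adjusted p = 0.000175). HSPA1B went from 31.0 and 33.4 CPM to 21.5 and 25.2 (-0.47, SE 0.102, adjusted p = 0.0023). Both genes were lower in each gemcitabine library than in each vehicle library. Since 75.1% of the 50-base words of the HSPA1A transcript are also in HSPA1B, how fragments were divided between them is uncertain, and the pair summed as 1 gene was again lower. Neither was abundant in these cells: with vehicle HSPA1A stood at 23.7 and HSPA1B at 12.4 FPKM, where HSPA8 stood at 751.

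HSPA4 and HSPA4L, which carry HSPA symbols but belong to the HSP110 type and act as exchange factors, also fell, HSPA4 by -0.35 on the log2 scale (adjusted p = 0.000793) and HSPA4L by -0.28 (adjusted p = 0.0173). HSPH1, or HSP105, also of this type, went from 191 and 202 CPM to 155 and 156, a difference of -0.34 on the log2 scale (SE 0.066, adjusted p = 0.000911). For HSPH1 the length-corrected values do not show the same: FPKM was 80.4 and 68.8 with vehicle and 67.9 and 74.8 with gemcitabine, so the conditions overlapped. FPKM depends on how Cuffdiff divided fragments over isoforms, and the part of this in the difference was not tested.

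In the remaining HSP70 genes, HSPA13, a small ER-associated HSP70-like protein, was the single member of the family that rose, at 0.21 (adjusted p = 0.0382). HSPA14 and HSPA12A were moderately expressed and did not pass, with log2 fold changes of 0.15 and 0.0039. HSPA2 did not pass by fragments (101 and 98 with vehicle, 99 and 111 with gemcitabine), although its FPKM was 2.98 and 3.26 against 5.20 and 5.71. HSPA1L, HSPA12B and HSPA6 had at most 39 fragments in any library. HSPA6, which is known for being almost silent without heat, had 5, 4, 2 and 4 fragments.

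All 3 HSP90 genes fell. HSP90AB1, the constitutive cytosolic form, was the most abundant of them and had the largest fall, from 1606 and 1576 CPM to 923 and 1000.1 (log2 fold change -0.73, SE 0.0681, adjusted p = 2.04e-06), or 1.65-fold lower. In FPKM, tested with limma on log2(FPKM + 1), its change was -0.56 and passed the adjusted p threshold but not 1.5-fold. HSP90AA1, the inducible cytosolic form, went from 1262 and 1307 CPM to 944 and 927 (-0.46, SE 0.065, adjusted p = 7.59e-05). The ratio of HSP90AB1 to HSP90AA1 fragments was 1.27 and 1.21 with vehicle and 0.978 and 1.08 with gemcitabine. Such within-library ratios do not depend on scaling, and with 2 libraries against 2 no exact two-sided permutation test can go below p = 0.333.

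HSP90B1, known as GRP94, went from 1239 and 1242 CPM to 953 and 1123 (log2 fold change -0.26, SE 0.0777, adjusted p = 0.0171). One gemcitabine library sat much nearer the vehicle libraries than the other. It did not pass when fragments were scaled by library totals (-0.15, adjusted p = 0.104), nor by FPKM.

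The mitochondrial chaperonin fell in both of its subunits. HSPD1 and HSPE1 lie head to head on chromosome 2, with starts 539 bases apart, and share the region between them. HSPD1, the subunit that forms the barrel, went from 1412 and 1416 CPM to 972 and 1007 (-0.51, SE 0.0649, adjusted p = 2.6e-05). HSPE1, the lid, went from 222 and 219 CPM to 175 and 174 (-0.33, SE 0.0642, adjusted p = 0.000909). The ratio of HSPD1 to HSPE1 fragments was 6.37 and 6.47 with vehicle and 5.55 and 5.77 with gemcitabine. Of the 50-base words of their transcripts, 27.1% and 48.2% are shared with annotated transcripts of other genes with family symbols. These are mainly a pseudogene for HSPD1 and a readthrough for HSPE1.

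Other mitochondrial chaperones moved with them. HSPA9, or mortalin, the HSP70 that pulls proteins into the matrix, went from 550.3 and 531 CPM to 397 and 401 (-0.44, SE 0.0648, adjusted p = 0.00011). DNAJA3, its J-domain partner in the matrix, went from 97.8 and 98.4 CPM to 79.3 and 77.0 (-0.33, SE 0.0669, adjusted p = 0.00142). HSPD1, HSPE1, HSPA9, DNAJA3, DNAJC11, DNAJC15, DNAJC19 and DNAJC30 were put together as a group after the values were seen, so their counts only describe it. The group may not hold every mitochondrial member. Its median log2 fold change was -0.33. Of the 8, 5 fell (62.5%, where 20.0% of all tested genes did) and none rose (18.5% of all tested genes did). This count became 2 when either vehicle library was left out and by limma on log2(FPKM + 1). DNAJC15 and DNAJC19, relatives of the import motor's J-domain subunit, did not pass (-0.014 and -0.19), and neither did DNAJC30 (0.14).

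In a group of 8 of the ER put together in the same way, HSPA5 (BiP), HSP90B1 and DNAJC1 fell, HSPA13 and DNAJC3 rose, and DNAJB9, DNAJB11 and DNAJC10 did not pass. The group does not hold every ER member: DNAJB12, an ER membrane protein given further on, fell and is not in it. HSPA5 went down by 1.26-fold (log2 fold change -0.34, adjusted p = 0.00105). DNAJC1, a membrane J-domain protein of the ER, was the largest fall of any J-domain gene, from 155 and 162 CPM to 107 and 112 (-0.53, SE 0.067, adjusted p = 2.63e-05). DNAJB11, a soluble J-domain partner of BiP, stood at 112, 111, 111 and 115 CPM, with little spread over all 4 libraries (0.023, 95% interval -0.12 to 0.16, adjusted p = 0.808). DNAJC3, also called p58IPK, was higher by 0.30 (adjusted p = 0.0247). The rises of both HSPA13 and DNAJC3 were lost with DESeq2, with no filter, by limma, and without vehicle replicate 1, vehicle replicate 2 or gemcitabine replicate 2. The falls in the group became 1 when either vehicle library was left out and by limma on log2(FPKM + 1), and 2 by library totals.

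Small heat shock proteins hold unfolded proteins without ATP. HSPB1, or HSP27, was by far the most abundant, with 594 and 569.8 CPM with vehicle and 534 and 459.9 with gemcitabine (-0.23, SE 0.0764, adjusted p = 0.0294). HSPB8, a partner of BAG3 in selective autophagy, had 61.4 and 63.2 CPM with vehicle and 82.8 and 67.0 with gemcitabine (0.27, SE 0.0905, adjusted p = 0.0311). Each of these calls rested on 1 gemcitabine library: without gemcitabine replicate 2 HSPB1 was at -0.12 (adjusted p = 0.0662), and without gemcitabine replicate 1 HSPB8 was at 0.10 (adjusted p = 0.309). HSPB1 also did not pass under scaling by library totals (-0.12).

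HSPB2 was at 0 fragments in both vehicle libraries and near 6 and 7 in the gemcitabine libraries, which is at least 5.10-fold higher against a floor of 3 fragments over the group. It passed the test (adjusted p = 0.00465) but shares most of its exons with a readthrough transcript and lies over CRYAB on the other strand, so the origin of these few fragments is uncertain. HSPB7 was untested, with 0 and 0 fragments against 2 and 5. HSPB3 had 6 and 8 fragments against 23 and 5, and HSPB6 had 18 and 13 against 22 and 23, and neither passed. For HSPB3, 1 gemcitabine library carried most of the fragments.

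Of 40 J-domain genes tested, 6 fell (15%), 6 rose (15%) and 28 did not pass, which is not above the 20.0% and 18.5% of all genes. Of 14 HSPA genes 7 fell (50.0%) and 1 rose. Without vehicle replicate 1 the falls were 2 J-domain and 4 HSPA genes, and without vehicle replicate 2 they were 2 and 3. By limma on log2(FPKM + 1) they were 1 and 2. Median log2 fold change was -0.051 over J-domain genes and -0.31 over HSPA genes. Under scaling by library totals these medians were 0.058 and -0.20, so that of the J-domain genes turned its sign; no test was made between the families. Summed FPKM of the J-domain genes over that of the HSPA genes was 0.846 and 0.862 with vehicle and 1.20 and 1.22 with gemcitabine, a shift with no overlap between conditions. HSPA8 alone made up a large part of the HSPA sum. Without it the ratio was 1.46 and 1.48 with vehicle and 1.82 and 1.80 with gemcitabine.

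**Figure D4:**
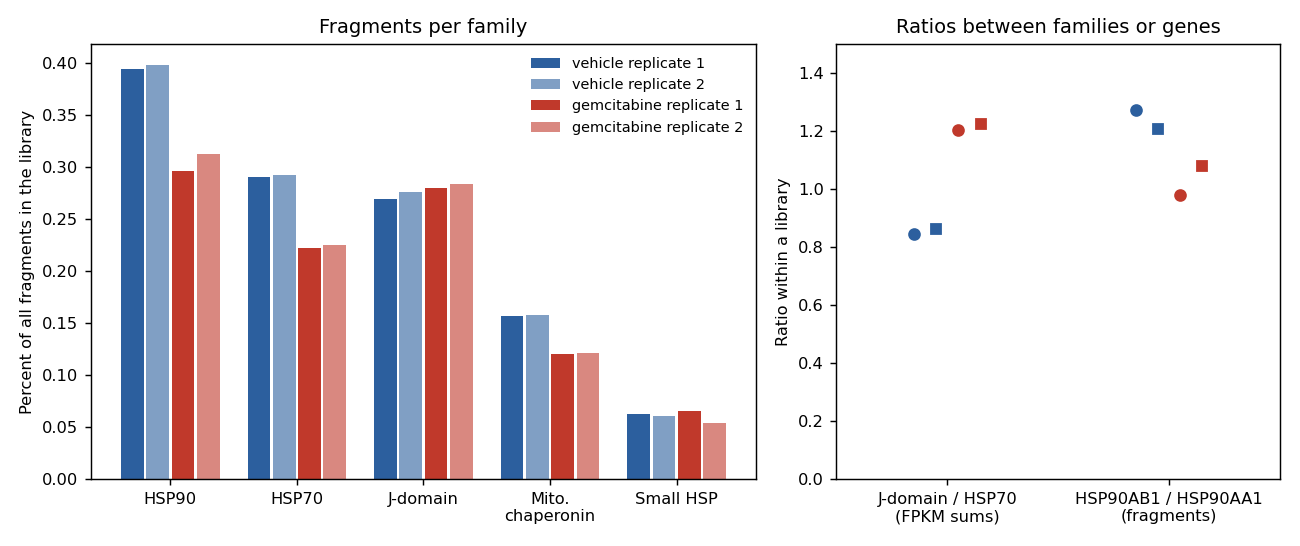
Left, percent of all fragments in each library (vertical axis, bars from 0) taken by 5 families, with vehicle in blue and gemcitabine in red. Right, ratios within each library, where J-domain over HSP70 rises from 0.846 and 0.862 to 1.20 and 1.22 and HSP90AB1 over HSP90AA1 goes from 1.27 and 1.21 to 0.978 and 1.08.

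Class A proteins are the general partners of cytosolic and mitochondrial HSP70, close in build to bacterial DnaJ. DNAJA1 was the most abundant J-domain gene and did not pass, with 437 and 452 CPM with vehicle and 413 and 446 with gemcitabine (-0.050, 95% interval -0.20 to 0.095, adjusted p = 0.595). DNAJA2 and DNAJA4 did not pass either (-0.035 and -0.26), which left mitochondrial DNAJA3 as the single class A gene that fell.

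Among the 10 tested class B genes, 3 rose and 1 fell. DNAJB1, or HSP40, is the canonical heat-inducible partner of HSPA8 and HSPA1A. It stood at 105, 101, 105 and 106 CPM (log2 fold change 0.039, 95% interval -0.10 to 0.18, adjusted p = 0.678). It thus did not pass where HSPA8 fell, and it shares 525 exon bases with TECR on the opposite strand. DNAJB5 went from 14.0 and 14.4 CPM to 22.3 and 27.3 (0.81, SE 0.119, adjusted p = 0.000108), or 1.75-fold higher. DNAJB2, best known from neurons, where it steers clients to the proteasome, went from 35.6 and 35.0 CPM to 56.6 and 49.9 (0.59, SE 0.0859, adjusted p = 8.83e-05). This 1.51-fold rise is just past the 1.5-fold criterion, and without gemcitabine replicate 1 it was 0.50 on the log2 scale and no longer called. DNAJB4, a close relative of DNAJB1, went from 44.2 and 48.6 CPM to 55.3 and 59.0 (0.30, SE 0.0803, adjusted p = 0.00871). DNAJB12, an ER membrane protein, was the single class B gene that fell (-0.27, adjusted p = 0.00983). DNAJB6, DNAJB7, DNAJB9 and DNAJB14 did not pass.

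Class C genes share only the J domain and have specialised roles. DNAJC22 had the largest rise of all well-measured members. It encodes a membrane J-domain protein whose fly relative, wurst, acts in endocytosis. It had 139 and 143 fragments with vehicle and 337 and 342 with gemcitabine, which is 9.56 and 9.39 CPM against 24.3 and 25.1. These values lie far apart, at 2.60-fold higher (log2 fold change 1.38, SE 0.114, adjusted p = 6.61e-07), and every fit without 1 library gave 1.36 to 1.41. Its level stayed modest, at 3.62 FPKM with vehicle and 9.10 with gemcitabine.

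Besides DNAJC22, the class C genes that rose were DNAJC4 (0.47, adjusted p = 0.00601) and DNAJC3. Fragments of DNAJC4 overlap those of NUDT22, which shares 297 exon bases on the same strand. Besides DNAJC1, those that fell were DNAJC2 (-0.43, adjusted p = 0.000507), DNAJC11 (-0.33, adjusted p = 0.00189) and DNAJC25. DNAJC2, as MPP11, sits on the ribosome and helps new chains to fold, and DNAJC11 is a protein of the mitochondrial membranes. DNAJC2 shares 1400 exon bases with PMPCB and DNAJC11 shares 1419 with THAP3, both on the opposite strand. The part of these overlaps in the falls was not tested. DNAJC25 had 23.7 and 15.6 CPM with vehicle and 12.7 and 15.2 with gemcitabine (-0.49, SE 0.169, adjusted p = 0.0321), so 1 vehicle library carried most of the difference, and without vehicle replicate 1 it was at -0.15. Its quantification was marked as failed in the table, and fragments were split with the readthrough DNAJC25-GNG10: the sum of both was 373 and 426 fragments with vehicle and 288 and 302 with gemcitabine.

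The other 19 tested class C genes (DNAJC5 to DNAJC10, DNAJC12 to DNAJC19, DNAJC21, DNAJC24, DNAJC27, DNAJC28 and DNAJC30) did not pass. Apart from DNAJC28 they lay between -0.19 (DNAJC19) and 0.26 (DNAJC27) on the log2 scale. The highest by FPKM, which corrects for length, were DNAJC12, which assists the folding of aromatic amino acid hydroxylases, at 101 and 104 CPM with vehicle and 92.0 and 96.6 with gemcitabine (-0.12, adjusted p = 0.191), and DNAJC7, which links HSP70 with HSP90, at 108, 108, 105 and 103 CPM (-0.060, adjusted p = 0.5). The auxilin gene DNAJC6, which works with HSPA8 in clathrin uncoating, was low (130 and 133 against 119 and 130 fragments). DNAJC28 had 5 and 7 fragments against 9 and 14, a log2 fold change of 1.04 that did not pass (adjusted p = 0.145). DNAJC9, a histone co-chaperone, was at -0.068 (adjusted p = 0.486). DNAJC16 had fewer fragments with gemcitabine (442 and 465 against 359 and 382) but a higher FPKM (6.10 and 6.93 against 8.89 and 10.8), and it did not pass by fragments (adjusted p = 0.144).

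Genes that work with these chaperones were counted in 6 lists chosen by function, with earlier results of these data known. Of 63 tested genes 25 (39.7%) were lower, against 20.0% of all genes, and none was higher by edgeR, against 18.5%, where 3 were higher at an unadjusted p under 0.05 and DESeq2 called 1 higher and 20 lower. Scaled by library totals, 8 were higher and 15 lower, where 27.4% and 13.3% of all genes were. Without vehicle replicate 1 there were 0 higher and 13 lower (7.47% of all genes were lower), without vehicle replicate 2 there were 0 and 11 (6.94%), and without gemcitabine replicate 2 there were 5 and 33 (23.8%). By limma on log2(FPKM + 1) there were 0 and 9 (3.62%). By edgeR, 30.2% of all genes at 100 FPKM or more were lower, 27.4% from 10 to under 100 and 10.5% under 10. Listed genes such as CCT5 and STIP1 are above 100 FPKM, and the lists were not compared with genes of matched level.

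HSP90 co-chaperones fell in 9 of 15 cases (60.0%), where 20.0% of all tested genes did. Their median log2 fold change was -0.27 (-0.16 by library totals). Without vehicle replicate 1 the count was 6, and by limma on log2(FPKM + 1) it was 5. CHORDC1, an HSP90-binding protein, had the largest change, from 44.9 and 52.4 CPM to 28.9 and 24.0 (-0.88, SE 0.105, adjusted p = 1.6e-05). STIP1, or HOP, which joins HSP70 to HSP90, went from 428 and 416 CPM to 274 and 284 (-0.60, SE 0.0653, adjusted p = 7.25e-06). FKBP4, or FKBP52, a partner of steroid receptors, went from 81.7 and 83.9 CPM to 52.6 and 57.3 (-0.59, SE 0.0738, adjusted p = 2.39e-05). These 3 met all 4 criteria, although STIP1 and FKBP4 were just past 1.5-fold and fell below it in several alternatives. CDC37, which recruits kinases to HSP90, did not pass (0.11, adjusted p = 0.215). It is named for its role and outside the rule for named genes.

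All 8 subunits of the cytosolic chaperonin TRiC, which folds actin and tubulin, had estimates below 0. Of the 8, 6 fell (75.0%), where 20.0% of all tested genes did. The count was 3 without vehicle replicate 1, 2 without vehicle replicate 2, 3 by library totals and 1 by limma on log2(FPKM + 1). CCT5 had the largest fall, from 1162 and 1173 CPM to 802 and 783 (-0.56, SE 0.0646, adjusted p = 1.21e-05). Among nucleotide exchange factors 4 of 11 fell (36.4%), where 20.0% of all tested genes did. By library totals 2 fell (18.2%, where 13.3% of all genes did), and by limma on log2(FPKM + 1) 1 fell (9.09%, where 3.62% did). The count shrank when either vehicle library was left out and grew without gemcitabine replicate 2. Their median log2 fold change was -0.22, with -0.20 without vehicle replicate 1, -0.22 without vehicle replicate 2 and -0.26 without gemcitabine replicate 2. GRPEL1, the exchange factor of mitochondrial HSPA9, went from 58.5 and 57.3 CPM to 38.3 and 38.2 (-0.60, SE 0.0768, adjusted p = 3.08e-05) and was the single one called by all 4 criteria, a call it lost by library totals (-0.49), by limma and without vehicle replicate 1.

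In the ER folding and unfolded protein response list, 4 of 17 fell (23.5%), which is near the 20.0% of all genes. The count was 1 when either vehicle library was left out, by library totals, with no filter and by limma on log2(FPKM + 1). ATF4, a transcription factor of the integrated stress response, was the largest, from 196 and 185 CPM to 121 and 125 (-0.63, SE 0.0668, adjusted p = 5.61e-06). It met all 4 criteria, but not by library totals (-0.52), by limma or without vehicle replicate 1. AFG3L2, a protease of the inner mitochondrial membrane, was the single gene past the test among 7 mitochondrial proteases (-0.37, adjusted p = 0.000768).

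Among the heat shock factors themselves, the main ones did not pass. HSF1 stood at 163 and 159.5 CPM with vehicle and 152 and 155 with gemcitabine (-0.071, 95% interval -0.21 to 0.067, adjusted p = 0.415). HSF2 was at -0.14 (adjusted p = 0.271), HSF4 was at 0.27 (adjusted p = 0.153) and HSBP1, a small protein that binds HSF1, was at -0.00047 (adjusted p = 0.997). The single factor past the test was HSF5, with 9 and 14 fragments against 1 and 1, too few for a reliable size. RNA levels say nothing of the activity of these proteins.

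**Figure D5:**
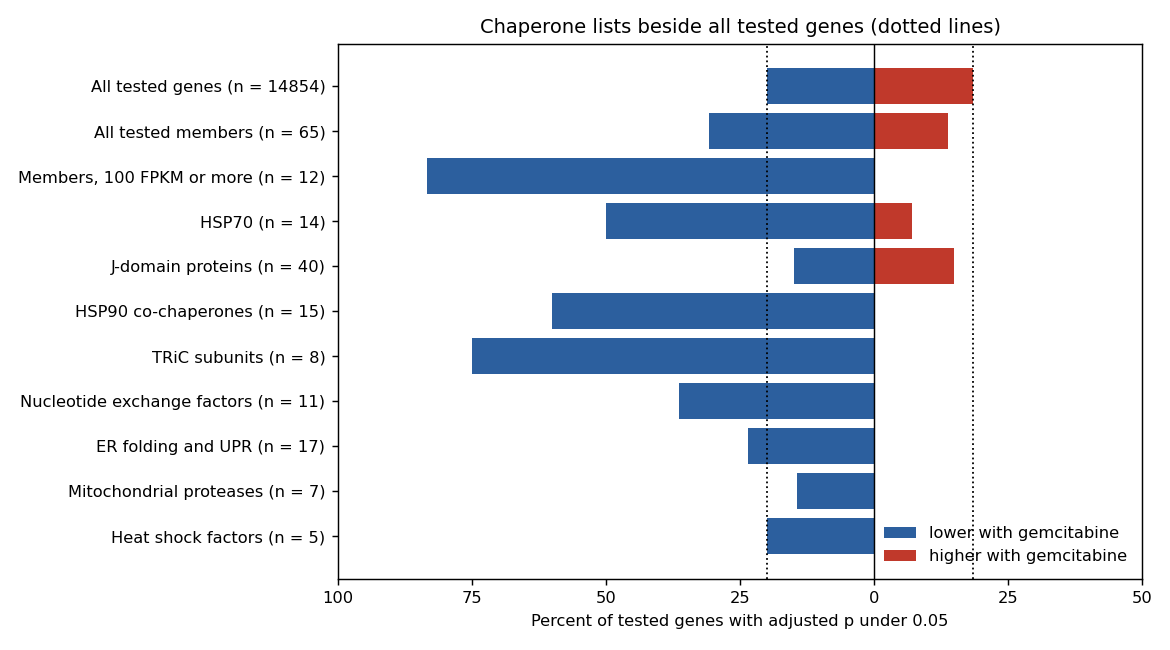
Percent of tested genes with an adjusted p under 0.05 (horizontal axis), lower with gemcitabine to the left in blue and higher to the right in red, for all tested genes, for sets of members and for the 6 lists of related genes, with the number tested in parentheses. Dotted lines mark the 20.0% and 18.5% of all tested genes, whatever their level. HSP90 co-chaperones (60.0%) and TRiC subunits (75.0%) reach well past the left one.

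Open chromatin at the members' promoters was read from the DNaseI peak lists, with 9606 peaks for vehicle and 10695 for gemcitabine. Within 1 kb of an annotated start site, 30 of the 65 tested members (46.2%) had a vehicle peak, against 27.8% of all tested genes, and 35 (53.8%) had a gemcitabine peak, against 32.2%. Of the 65, 25 had a peak in both lists (38.5%, against 21.0% of all tested genes), 10 with gemcitabine only (15.4%, against 11.2%), 5 with vehicle only (7.69%, against 6.78%) and 25 in neither. Over all 70 members the counts were 30 with vehicle and 36 with gemcitabine. Tested members had a higher median level than all tested genes (25.6 against 12.6 FPKM). They were not compared with genes of matched level or matched number of start sites, which was 20 in DNAJC7. With 1 library per condition there is no test between the lists, and a peak missing from one list can be a site just under its threshold.

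Several genes that fell had a peak in both lists. HSPA8 had a vehicle peak at chr11:122932532-122933618, over the whole of the window printed above, with a score of 130.82 (the score is -10 times the log10 of the p-value that MACS gave), and a gemcitabine peak with a score of 107.54. The region shared by HSPD1 and HSPE1 had scores of 181.87 and 160.59, and that of HSPH1 had 131.57 and 182.19. HSPA9 (126.62 and 178.86), HSPA5 (110.22 and 132.72), HSP90B1 (197.92 and 110.67) and HSPA1B (135.75 and 219.57) also had peaks in both lists.

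Of the 20 members that fell, 11 had a peak in both lists, 4 with gemcitabine only, 1 with vehicle only and 4 in neither. Those with gemcitabine only were HSP90AB1 (score 56.02), HSP90AA1 (107.63), HSPA1A (88.32) and DNAJC1 (66.56). For HSP90AA1 the peak with this score is at another annotated start, at chr14:102605108-102606465. The promoter window searched for its heat shock element also overlapped a gemcitabine peak, and no vehicle peak. HSPA4 (61.39) had a peak with vehicle only, and DNAJC2, DNAJC11, DNAJC25 and HSPA4L had none. Of the 3 genes called higher, DNAJB5 had peaks in both lists (124.44 and 121.91), DNAJB2 had one with gemcitabine only (51.50, close to the minimum of 50 that the lists hold) and DNAJC22 had none within 1 kb.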

How the data were processed

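RNA-seq of PANC1 cells (2 vehicle and 2 gemcitabine libraries) and DNaseI-seq (1 of each) were analysed, grouped by the sample titles. Single-end reads had been mapped by the authors (hg19, TopHat2 2.0.8), who then quantified Gencode V15 protein-coding genes with Cuffdiff 2.0.2, which gave the deposited estimated counts (fragments per gene and library, not normalised) and the deposited FPKM values. Estimated counts can be fractional and divide shared fragments by a model. The deposited DNaseI peak score is MACS's -10 log10 p, with peaks called per condition at p 1e-05; its version is not given in the sources used here.

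Counts were rounded and tested over the whole table with edgeR 4.0.16 (quasi-likelihood, TMM scaling, at least 10 fragments over the 4 libraries, Benjamini-Hochberg) in R 4.3.3. TMM scaling factors were 0.959 and 0.966 with vehicle and 1.05 and 1.03 with gemcitabine. Between libraries of a condition the mean chi-square per gene was 2.21 (vehicle) and 5.40 (gemcitabine), and the biological coefficient of variation was 0.0522. A floor of 3 fragments is 0.190 to 0.227 CPM, which covers counting error only. The table numbers its replicates without tying them to the titles, so replicate numbers here are those of the table. Alternatives used DESeq2 1.42.0, limma 3.58.1 on log2(FPKM + 1) or log2(FPKM + 0.1), other scalings and filters, and each library left out. Scripts were tested on simulated counts. Promoter windows are from GRCh37 and GENCODE v44 (lifted), with 0 peaks past chromosome ends.

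Members and lists were chosen with earlier results of these data known. Values per library are given for members called by the 4 criteria, the 3 largest changes past the test (at least 1 CPM) and the 2 highest levels in each class, and for called genes and the largest change of each related list. Other genes are named to account for all members or for their role, after their values were seen. A marker gene of the cell type lists is not reported here.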

Additional observations from a re-analysis of the deposited data

How the results depend on the processing

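The 5 calls by the 4 criteria were made again with DESeq2, DESeq2-type size factors, library totals, no filter, filterByExpr, an adjusted p under 0.01 and HSPA1A and HSPA1B summed. At a fold limit under 1.5, 19 members were called (4 higher, 15 lower). Leaving out each library in turn gave 4 to 7 calls, 12 to 30 members past the adjusted p, 11 to 38 genes of the related lists and a member median of -0.10 to -0.048. By limma, members past the adjusted p were 12 on log2(FPKM + 1) (6 higher, 6 lower, where 8.54% and 3.62% of all genes were) and 13 on log2(FPKM + 0.1), and related genes were 9 in both. With limma and no filter on low values, 0 members and 0 related genes passed (22 and 19 at an unadjusted p under 0.05, and 133 of all genes at the adjusted p), so 0 members were called. DESeq2 gave 22 members, 5 higher and 17 lower. Members with no exon bases shared with other genes, an alternative chosen after seeing the data, gave 19 (6 higher, 13 lower).

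Scaling by library totals moved the median of all genes from 0.0069 to 0.12. The median of members changed sign there (0.042) and by limma (0.043, 0.054 with the smaller pseudocount, 0.032 unfiltered), where the median of all genes was 0.10, 0.13 and 0.0053. DNAJA1 turned positive by library totals (0.059), by limma (0.062, 0.062 and 0.063) and without gemcitabine replicate 1 (-0.11 to 0.0045 over the 4 libraries left out), DNAJC7 by library totals (0.050) and limma (0.016, 0.016 and 0.016), and DNAJC25 by limma (0.015, 0.015 and 0.017). None of these turned values passed the test, although DNAJC25 was among the 20 members lower by edgeR. Of the other values for single genes, 361 kept their direction and side of the threshold and 71 lost the threshold. The cause was not tested. With the table's replicate number as a replicate block, 29 members passed (9 higher, 20 lower) and 5 were called, as without it. Nucleotide exchange factors went from 4 to 5 lower and the ER folding list from 4 to 3, with 25 related genes lower in both fits. Deviations of same-numbered libraries correlated at -0.033 over 11056 genes. They thus showed no shared deviation, which cannot tell whether the libraries were prepared as pairs. DNaseI counts at a score of at least 100 were 14 members with vehicle (21.5% of tested members, against 8.0% of tested genes) and 17 with gemcitabine (26.2%, against 9.91%). Intervals were widest for members with few fragments, such as HSPA6, HSPB3 and DNAJC28.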
